A study of Mus musculus with 24 samples.

Results

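AGES, astrocytes generated from embryonic stem cells by BMP4 treatment, were compared with the neural stem cells (NSCs) they were differentiated from. The comparison took the libraries that carry these group names in their labels, 4 of AGES and 4 of NSCs, which are 8 of the 24 libraries of a mouse RNA-seq series. The other libraries, 4 in each of 4 groups of cultured or directly isolated neonatal and adult primary astrocytes, entered the statistical model but are not described here. Each of 49671 genes had been counted, and 19691 of them passed a filter on low counts and were tested.

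NSCs and AGES came from 1 mouse embryonic stem cell line on a C57Bl/6 N background, so the replicates are independent cultures from different passages of 1 line and not different animals. NSCs grew on gelatin in N2B27 medium with 20 ng/ml each of EGF and FGF and were between passages 50 and 60. AGES were made from such NSCs on poly-L-ornithine and laminin, in N2B27 medium with 20 ng/ml BMP4 for 3 to 5 days. EGF and FGF are not listed for the AGES medium. The addition of BMP4, the loss of EGF and FGF, the change of coating and the time in culture therefore move together between the groups, and their effects cannot be told apart.

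Bone morphogenetic proteins (BMPs) are secreted ligands that bind pairs of type I and type II serine/threonine kinase receptors, which phosphorylate Smad1, Smad5 and Smad9. These enter the nucleus with Smad4 and switch on target genes, among them the Id genes, whose products hold back proneural transcription factors, and the inhibitory Smads, which close a feedback loop. EGF and FGF act through receptor tyrosine kinases and the ERK cascade and keep neural stem cells dividing in culture. When BMP replaces these factors, cultured neural stem cells are known to leave the cell cycle and take on an astrocytic form with abundant GFAP filaments.

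AGES libraries held 28114306 to 36911160 counts on genes and NSC libraries 30371350 to 35192197, spread over 20777 to 21742 detected genes. Levels are CPM, counts scaled to a common library size of 1000000, after TMM scaling in edgeR, as mean ± SD over n = 4 libraries where an SD is printed. Values of single libraries are listed in the order of replicates 1 to 4. The median coefficient of variation of genes with at least 10 CPM was 10.1% in NSCs and 7.38% in AGES. NSC replicate 2 stood apart in hypoxia and glycolysis genes, and AGES replicates 3 and 4 in some inflammatory genes, as described with those genes. AGES replicates 3 and 4 also lay above replicates 1 and 2 in genes of other roles, among them Vim, Ctsb, Ccnd1 and Hk2. In bulk RNA, fewer cells of one kind and less RNA per cell cannot be told apart. Defining markers of some other cell types were near 0 in both groups: the microglial genes C1qa, C1qb, Itgam and Cx3cr1, the endothelial gene Cldn5 and the neuronal genes Snap25, Slc17a6, Slc32a1 and Gad2 had 3 counts or fewer in every library. Of 12 microglia and macrophage markers tested, 3 were higher and 1 lower in AGES, and Aif1 and Trem2, which passed the test, stayed at 0.131 and 0.406 CPM. Other members of the marker lists were not near 0. The summed level was 49.6 to 69.2 CPM in NSCs and 89.9 to 95.6 CPM in AGES for the microglia and macrophage list and 5.73 to 7.50 CPM and 2.30 to 3.57 CPM for 10 endothelial and mural markers, of which 1 was higher and 3 were lower. The 22 neuron markers summed to 710.1 to 891 CPM in NSCs and 561 to 644 CPM in AGES, with 4 higher and 7 lower, and the 16 markers of the oligodendrocyte lineage, among them Olig1 and Olig2, to 1831 to 2170 CPM and 289.99 to 389.9 CPM, with 2 higher and 3 lower. The part of other cell types in the results was not tested.

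The change from NSCs to AGES covered most of the expressed genome. Of the 19691 genes tested, 6246 (31.7%) were higher and 6691 (34.0%) lower in AGES at an adjusted p under 0.05 in edgeR's two-sided quasi-likelihood test with Benjamini-Hochberg adjustment, 65.7% in all. With a log2 fold change over 1 in size as a further criterion, 3846 genes (19.5%) were higher and 3630 (18.4%) lower. The median log2 fold change was 0.00, and 1052 genes rose and 804 fell by more than 3 on the log2 scale. In 11473 genes (58.3%) the 4 AGES libraries did not overlap with the 4 NSC libraries. These shares are the background for all counts of group members given below, and a gene group with about 1 in 3 members in each direction did not stand out from it. The filter used all 24 libraries, so some genes near 0 in both AGES and NSCs were tested because primary astrocytes expressed them. A fit of only AGES and NSCs tested 15101 genes and called 5815 higher and 5682 lower, larger shares in both directions.

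The genes that rose most by log2 fold change among those that reached 10 CPM were led by Fmod, which encodes fibromodulin, a collagen-binding proteoglycan of the matrix. Fmod had 1.21, 1.12, 1.40 and 0.936 CPM in the NSC libraries and 2021, 1905, 2888 and 1357 CPM in the AGES libraries, a log2 fold change of 10.77 (edgeR adjusted p = 6.34e-20, with a standard error, SE, of 0.29). Gfap, the filament protein that defines astrocytes, came next among genes measurable in both groups. Podn, another small proteoglycan, rose from 0.233 ± 0.0441 to 184 ± 116 CPM, and C3, the central complement component, from 2.08 ± 1.08 to 1622 ± 795 CPM. Several genes of this group had 3 counts or fewer in every NSC library, so their fold is only a lower bound. They were Trim63, a ubiquitin ligase known from muscle (at least 197-fold higher), the protease gene Capn3 (at least 202-fold), the mucin gene Muc15 (at least 185-fold) and the noncoding Srrm4os (at least 193-fold). Srrm4os overlaps Srrm4, and Muc15 overlaps Ano3, on the opposite strand. The counting options that the methods list include no strand option, so reads of the opposite strands may not have been told apart and these levels are uncertain. The same holds for 67 of the 272 genes named here, which overlap a gene on the other strand.

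The genes that fell most by the same measure included many genes of dividing cells. Depdc1b, a mitotic regulator, had 33.0, 31.9, 35.2 and 31.2 CPM in NSCs and 3 counts or fewer in every AGES library, at least 329-fold lower. Pbk, a mitotic kinase, was at least 1049-fold lower from 105 ± 13.1 CPM, and Rmi2, a subunit of a helicase complex, at least 221-fold lower from 22.0 ± 4.48 CPM. Pclaf, a partner of the replication clamp PCNA, fell from 151 ± 17.0 to 0.150 ± 0.0309 CPM. Knl1, a scaffold of the kinetochore, fell from 93.3 ± 18.1 to 0.123 ± 0.0634 CPM, Hmmr, a spindle protein, from 183 ± 10.01 to 0.232 ± 0.101 CPM, and Bub1, a checkpoint kinase, from 131 ± 7.96 to 0.145 ± 0.0969 CPM. The noncoding genes C030034L19Rik and Rptoros, which overlap Zfp704 and Rptor on the opposite strand, were at least 145-fold and 130.4-fold lower.

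Ranked by the difference in CPM, other genes led. Among those that gained most were Gfap, Vim, Sparc, Pea15a, Prdx6, Fth1, Fn1, Psap and Dbi. Sparc, a matrix-binding glycoprotein, rose from 884 ± 224 to 8704 ± 1719 CPM, Pea15a, a phosphoprotein enriched in astrocytes, from 667 ± 74.4 to 7810.0 ± 1642 CPM, and the peroxiredoxin gene Prdx6 from 213 ± 38.5 to 4001 ± 579.6 CPM. Fn1, fibronectin, rose from 123 ± 36.4 to 3693 ± 1194 CPM, and Fth1, the ferritin heavy chain, from 1486 ± 359 to 5218 ± 1292 CPM. Eef1a1, Serpine2, Nptx1, Tubb5, Hsp90ab1, Igfbp2, Rpsa, Mmp15, Top2a and Ccnd1 lost most. Nptx1, the neuronal pentraxin, had 2291, 2867, 2135 and 2138 CPM in NSCs and 16.5, 21.4, 25.1 and 22.0 CPM in AGES, so that it fell by 6.79 on the log2 scale (edgeR adjusted p = 1.08e-11, SE 0.45). Igfbp2, an insulin-like growth factor binding protein, fell from 1989 ± 302 to 277 ± 104 CPM, the membrane protease gene Mmp15 from 1702 ± 91.5 to 179 ± 12.5 CPM, and the protease inhibitor gene Serpine2 from 3508 ± 779 to 1152 ± 169 CPM. Because CPM are shares of a library, 1 gene can weigh on the scale: Gfap alone took 4.59% of AGES counts (4.41% to 4.79%) and 0.00316% of NSC counts, and the 10 genes with most counts took 9.997% in AGES and 4.51% in NSCs.

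**Figure D1:**
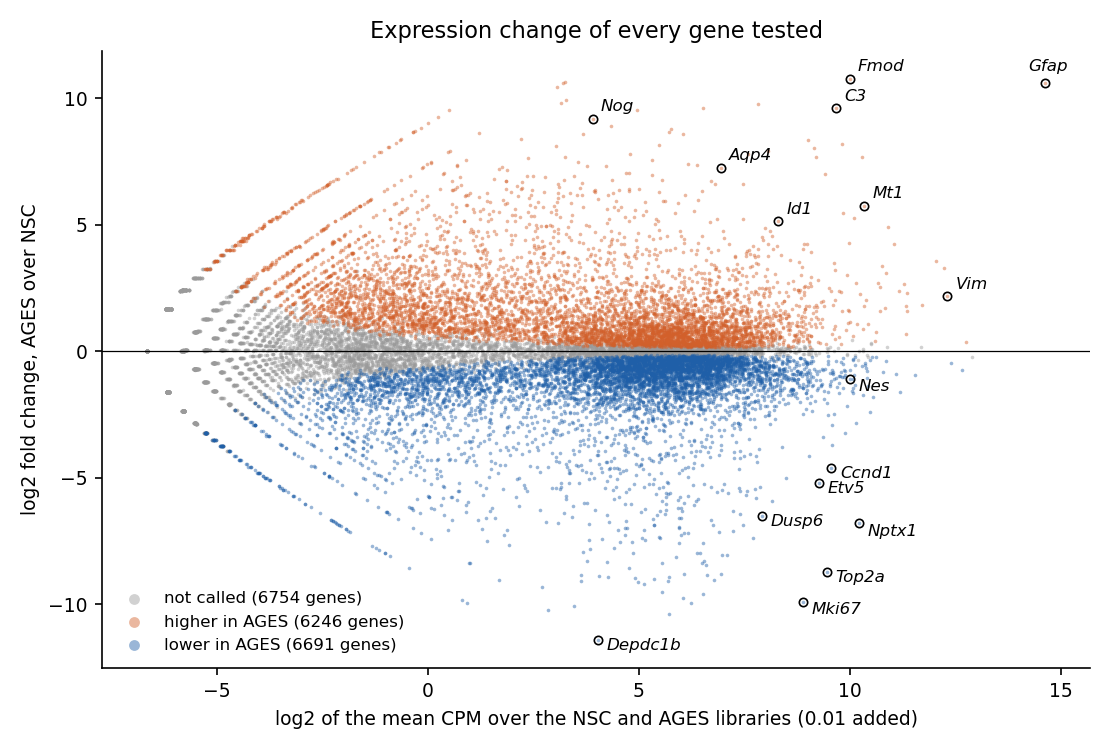
Mean level of each of the 19691 tested genes over the 8 libraries (horizontal axis, log2 CPM with 0.01 CPM added) against its log2 fold change, AGES minus NSC (vertical axis), with genes coloured by the edgeR call. The 6246 higher and 6691 lower genes surround a median of 0.00, with Mki67 (−9.91) among the lowest genes and Fmod (10.77) and Gfap (10.59) among the highest.

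Some genes passed from silent to expressed or the reverse. With silent taken as 3 counts or fewer in all 4 libraries, and expressed as a mean of at least 1 CPM, 92 genes were expressed in AGES only and 60 in NSCs only. With 10 counts in place of 3, the numbers were 293 and 181. The classes of genes also differed. Of 15588 protein-coding genes tested, 4987 were higher and 5723 lower, whereas of 1933 lncRNA genes 882 were higher and 243 lower, and of 1240 processed pseudogenes 84 were higher and 564 lower. Reads of pseudogenes can come from their parent genes, so these counts are uncertain. None of 60 snoRNA genes was higher in edgeR's test, also at an unadjusted p under 0.05 and in DESeq2's Wald test, and 42 were lower, and of 14 small nucleolar RNA host genes, a group chosen after its values were seen, none was higher by the same 3 measures and 10 were lower, with a median log2 fold change of −1.04. Among them, Snhg5 fell from 41.9 ± 4.66 to 9.89 ± 1.15 CPM and Snhg1 from 57.8 ± 11.3 to 17.1 ± 2.29 CPM. The nuclear lncRNAs Malat1 and Neat1, also chosen after their values were seen, rose, Malat1 from 433 ± 163 to 2821 ± 164 CPM and Neat1, which builds paraspeckles, from 40.2 ± 12.1 to 1787 ± 562 CPM.

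The question that follows first from the treatment is how the BMP pathway itself moved. Of 17 BMP ligands and secreted antagonists tested, 7 were higher and 4 lower in AGES (2 lower without NSC replicate 1). Bmp4 itself had 0, 0, 0 and 0.134 CPM in the NSC libraries and no count in any AGES library. Bmp7 was the ligand gene that fell most, with 64.1, 51.3, 120.3 and 63.6 CPM in NSCs, and had 3.94, 2.93, 3.88 and 4.44 CPM in AGES. All AGES values lay far below all NSC values, and Bmp7 fell by 4.30 on the log2 scale (edgeR adjusted p = 1.2e-14, SE 0.22). Gdf11, a related ligand, rose from 57.8 ± 9.79 to 194 ± 34.9 CPM. Among the antagonists, Nog, which encodes noggin, a trap for BMP4, went from 3 counts or fewer in every NSC library to 19.4, 28.5, 52.6 and 19.3 CPM in AGES, at least 311-fold higher, and Nbl1, another secreted BMP antagonist that was not in the list and was chosen after its values were seen, rose from 0.755 ± 0.255 to 18.7 ± 2.50 CPM. Chrdl1 did not pass the test, at 18.99 ± 2.27 and 15.2 ± 2.94 CPM, but did as lower without AGES replicate 3 or without NSC replicate 2, at −0.44 and −0.39 on the log2 scale, and Bmper fell from 27.1 ± 13.3 to 10.9 ± 4.06 CPM with overlapping libraries.

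Of 15 receptor and Smad genes, 9 were higher and 5 lower, and Bmpr1a and Bmpr1b, the type I receptors that bind BMP4, both rose. Bmpr1b had 12.7, 9.38, 8.31 and 10.9 CPM in NSCs and 111, 109.8, 63.1 and 81.1 CPM in AGES, a log2 fold change of 3.14 (edgeR adjusted p = 6.39e-15, SE 0.16). Bmpr1a rose from 291 ± 29.9 to 582 ± 39.3 CPM and the type II receptor gene Bmpr2 from 176 ± 10.3 to 268 ± 18.6 CPM. Acvr1, the type I receptor also called ALK2, was at 34.7 ± 3.53 CPM in NSCs and 34.5 ± 3.72 CPM in AGES (log2 fold change −0.01, standard error 0.081), and Acvr2a and Acvr2b were lower, by 0.39 and 0.89 on the log2 scale, Acvr2a without passing once AGES replicate 4 was left out. The receptor-activated Smads moved apart: Smad1 rose from 34.0 ± 2.99 to 71.8 ± 10.5 CPM and Smad9 from 0.644 ± 0.169 to 11.6 ± 3.54 CPM, whereas Smad5 fell from 347 ± 81.4 to 119 ± 9.57 CPM and the shared partner Smad4 from 103 ± 3.51 to 76.8 ± 3.004 CPM. The inhibitory Smads rose as well, Smad6 from 2.73 ± 1.43 to 29.9 ± 8.09 CPM and Smad7 from 2.35 ± 0.553 to 60.7 ± 21.0 CPM.

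Of 17 known BMP target genes, 15 were higher in AGES, against 31.7% of all genes tested, and their median log2 fold change was 2.81. Id1 had 17.96, 20.7, 12.1 and 19.3 CPM in NSCs and 522, 612, 678 and 649.8 CPM in AGES, a log2 fold change of 5.14 (edgeR adjusted p = 1.16e-17, SE 0.19). The 4 Id genes rose together: Id2 went from 22.7 ± 4.53 to 473 ± 51.2 CPM, Id3 from 151 ± 27.4 to 1062 ± 71.9 CPM, and Id4, which was barely detected in NSCs, from 0.217 ± 0.0465 to 11.5 ± 5.95 CPM. Atoh8, a helix-loop-helix factor, rose from 0.254 ± 0.180 to 55.4 ± 5.998 CPM, Hey1, a transcriptional repressor shared with the Notch pathway, from 17.0 ± 5.70 to 117 ± 14.9 CPM, and Bambi, a decoy receptor, from 11.6 ± 2.11 to 33.3 ± 4.32 CPM. Other members that rose included Gata2, Dlx2, Tob1, Runx2 and Msx1, by 2.90, 2.23, 1.61, 1.35 and 1.06 on the log2 scale. Nog, described above with the antagonists, is also a member, so these lists overlap and their counts are not separate. Dlx1 was the exception and fell from 3.09 ± 0.738 to 1.48 ± 0.182 CPM, though it overlaps Dlx1as on the opposite strand, and Msx2 had 3 counts or fewer in every library.

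**Figure D2:**
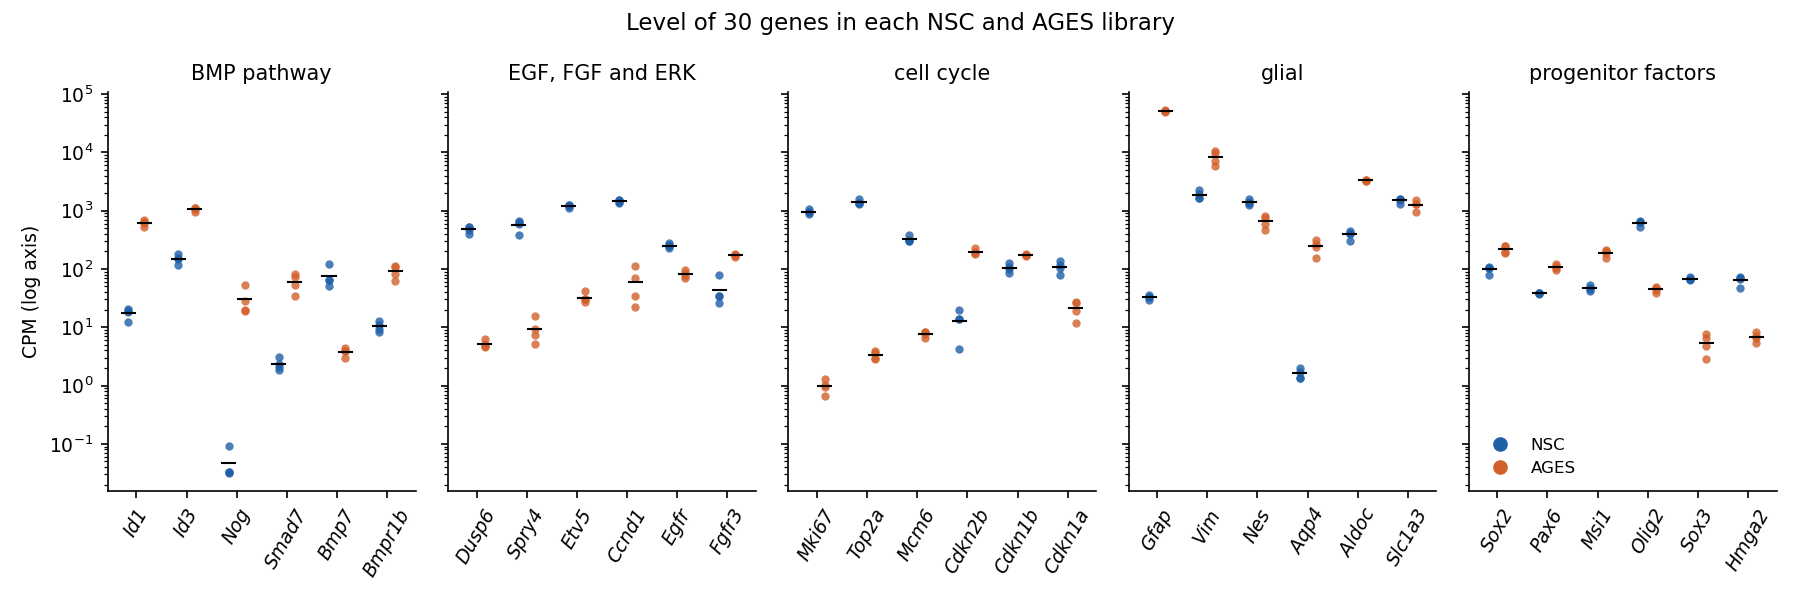
CPM of 30 genes in each of the 4 NSC and 4 AGES libraries (log axis, 1 point per library, black lines for group means, values under 0.02 CPM drawn at 0.02), in 5 panels by role. Id1, Smad7 and Nog lie higher in all AGES libraries, Dusp6, Spry4, Mki67 and Top2a lower, and the points of Slc1a3 overlap between the groups.

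The counterpart of BMP4 addition is the growth factor axis. Of 12 EGF, FGF and related receptor genes, 2 were higher, 3 lower and 7 not called. Egfr had 246, 228, 274 and 259.6 CPM in NSCs and 74.7, 70.5, 85.2 and 96.5 CPM in AGES, lower in every AGES library (log2 fold change −1.62, SE 0.094, edgeR adjusted p = 4.34e-14). Fgfr1 had 499.7 ± 27.6 CPM in NSCs and 465 ± 59.5 CPM in AGES, a difference within the spread of its libraries (edgeR adjusted p = 0.31), while Fgfr2 rose from 47.5 ± 9.77 to 196 ± 34.2 CPM and Fgfr3, which marks astrocyte precursors, from 43.2 ± 23.7 to 172 ± 9.18 CPM.

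Downstream of these receptors, 17 of 21 ERK feedback and target genes were lower, against 34.0% of all genes tested, with a median log2 fold change of −2.32. Dusp6, the phosphatase that switches ERK off again, had 527, 403, 461 and 522 CPM in NSCs and 4.60, 5.22, 4.71 and 6.35 CPM in AGES. The groups were far apart in every library, and Dusp6 fell by 6.51 on the log2 scale (edgeR adjusted p = 1.71e-17, SE 0.23). The feedback inhibitor Spry4 fell from 566 ± 127 to 9.36 ± 4.43 CPM, Spry1 from 193 ± 24.95 to 14.1 ± 5.60 CPM and Spry2 from 220.2 ± 14.5 to 44.0 ± 6.26 CPM. The ETS factors that read out FGF signalling followed, with Etv5 at 1198 ± 68.9 and 32.3 ± 6.13 CPM and Etv4 at 152 ± 13.8 and 3.91 ± 1.69 CPM, and Myc fell from 214 ± 32.8 to 24.3 ± 6.07 CPM. Egr2 was the only member that rose, from 1.65 ± 0.728 to 4.17 ± 0.604 CPM, and the remaining 3 members did not pass the test.

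The machinery of cell division was lower in AGES without exception in the lists examined. All 40 of 40 DNA replication genes were lower, with a median log2 fold change of −4.13 and a range from −8.37 to −0.93, and all 40 of 40 mitosis genes, with a median of −7.02 and a range from −9.91 to −2.81. The mitosis genes together took 0.848% of NSC counts and 0.00909% of AGES counts, and the replication genes 0.515% and 0.0467%. Mki67, the proliferation antigen Ki-67, had 936, 878, 944 and 1072 CPM in NSCs and 0.663, 0.928, 1.31 and 1.02 CPM in AGES, and fell by 9.91 on the log2 scale (edgeR adjusted p = 2.18e-21, SE 0.23). Top2a, the topoisomerase of dividing cells, had 1363, 1599, 1376 and 1294 CPM in NSCs and 3.67, 2.99, 2.88 and 3.88 CPM in AGES. Both groups were tight, and no AGES library came near an NSC library for either gene.

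Single members of both lists differed widely in their level and in the size of the decrease. Ube2c, an enzyme of the anaphase-promoting complex, fell from 218 ± 19.4 to 0.416 ± 0.0943 CPM, and Cdk1, the mitotic kinase, from 254 ± 18.8 to 6.67 ± 0.991 CPM. Mcm6, part of the replicative helicase, fell from 325 ± 36.6 to 7.59 ± 0.799 CPM, Tk1, thymidine kinase, from 179.6 ± 18.9 to 0.529 ± 0.229 CPM, and Rrm1, the large subunit of ribonucleotide reductase, from 460.1 ± 31.8 to 81.0 ± 4.26 CPM. The kinesins show the same division within 1 family: 16 of 37 were higher and 16 lower. The mitotic motors Kif14, Kif2c and Kif23 fell by 9.19, 8.93 and 8.13 on the log2 scale, whereas the transport motor Kif21a rose from 23.6 ± 2.33 to 129 ± 15.3 CPM, Kif1b from 290.5 ± 20.8 to 664 ± 36.6 CPM and Kif5b from 372 ± 54.4 to 484 ± 60.7 CPM.

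Since the division genes moved together, their promoters were read for short sequence motifs. Promoters came from RefSeq on GRCm38.p6, 250 bases before to 50 bases after the start, and 33 of the mitosis symbols matched, with 35 promoters. The motifs were TTTGAA, the CHR element of late cell cycle genes, CCAAT, and GCGGGAA or GCGCCAA for E2F, on either strand, and the E2F letters can overlap with CCAAT. The lines below show the 120 bases before the start, 5′ to 3′, of 5 mitosis genes and 3 replication genes, chosen because they hold the motifs that separate the groups, with motif letters on either strand in capitals.
Cdk1, chr10:69352913-69353032, minus strand: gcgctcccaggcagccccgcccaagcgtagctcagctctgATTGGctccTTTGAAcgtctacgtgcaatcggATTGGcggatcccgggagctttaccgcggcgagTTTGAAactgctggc
Top2a, chr11:99024190-99024309, minus strand: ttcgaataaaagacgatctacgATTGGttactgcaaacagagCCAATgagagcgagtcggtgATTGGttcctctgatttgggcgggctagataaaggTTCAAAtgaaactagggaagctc
Cdc20, chr4:118437344-118437463, minus strand: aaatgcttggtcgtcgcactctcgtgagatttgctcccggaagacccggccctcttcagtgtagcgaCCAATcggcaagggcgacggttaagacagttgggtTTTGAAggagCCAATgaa
Ube2c, chr2:164769809-164769928, plus strand: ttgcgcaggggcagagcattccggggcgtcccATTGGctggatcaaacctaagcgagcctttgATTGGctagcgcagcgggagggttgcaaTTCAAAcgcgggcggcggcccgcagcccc
Kif11, chr19:37376262-37376381, plus strand: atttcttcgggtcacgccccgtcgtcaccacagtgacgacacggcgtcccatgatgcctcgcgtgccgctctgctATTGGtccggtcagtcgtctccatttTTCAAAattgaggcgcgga
Mcm6, chr1:128359706-128359825, minus strand: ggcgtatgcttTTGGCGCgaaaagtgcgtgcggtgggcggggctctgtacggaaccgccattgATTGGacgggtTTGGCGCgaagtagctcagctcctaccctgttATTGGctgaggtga
Rrm1, chr7:102441575-102441694, plus strand: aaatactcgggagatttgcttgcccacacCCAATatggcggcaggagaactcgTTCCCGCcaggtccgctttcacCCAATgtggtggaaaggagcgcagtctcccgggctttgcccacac
Prim1, chr10:128015095-128015214, plus strand: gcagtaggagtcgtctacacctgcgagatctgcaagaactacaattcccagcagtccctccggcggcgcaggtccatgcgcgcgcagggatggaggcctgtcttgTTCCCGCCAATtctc

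TTTGAA was present in 25 of 35 mitosis promoters (71.4%), in 5 of 36 replication promoters (13.9%) and in 12.4% of the 16702 promoters of genes tested. With only the 250 bases before the start, the share of mitosis promoters was 31.4%, against 11.05% of promoters of genes tested, the other matches lying across or within the 50 bases after the start. The E2F letters were present in 17 of 36 replication promoters (47.2%), in 14.3% of mitosis promoters and in 10.7% of promoters of genes tested, and with only the 250 bases before the start in 25%, 11.4% and 8.86%. CCAAT was in 74.3% of mitosis and 52.8% of replication promoters, against 37.2%. In the sequences above, Cdk1, Top2a, Cdc20, Ube2c and Kif11 carry TTTGAA or its complement near the start and CCAAT letters beside it, and Mcm6, Rrm1 and Prim1 carry E2F letters. For BMP target genes, 12 symbols matched, with 13 promoters, and Id1 was not among them. Of these promoters, 4 (30.8%) held GGCGCC, a GC-rich letter run known from BMP-responsive enhancers. The share was 19.3% of promoters of genes tested and 25.7% of mitosis promoters. These matches describe the letters in the windows, and no binding was measured.

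**Figure D3:**
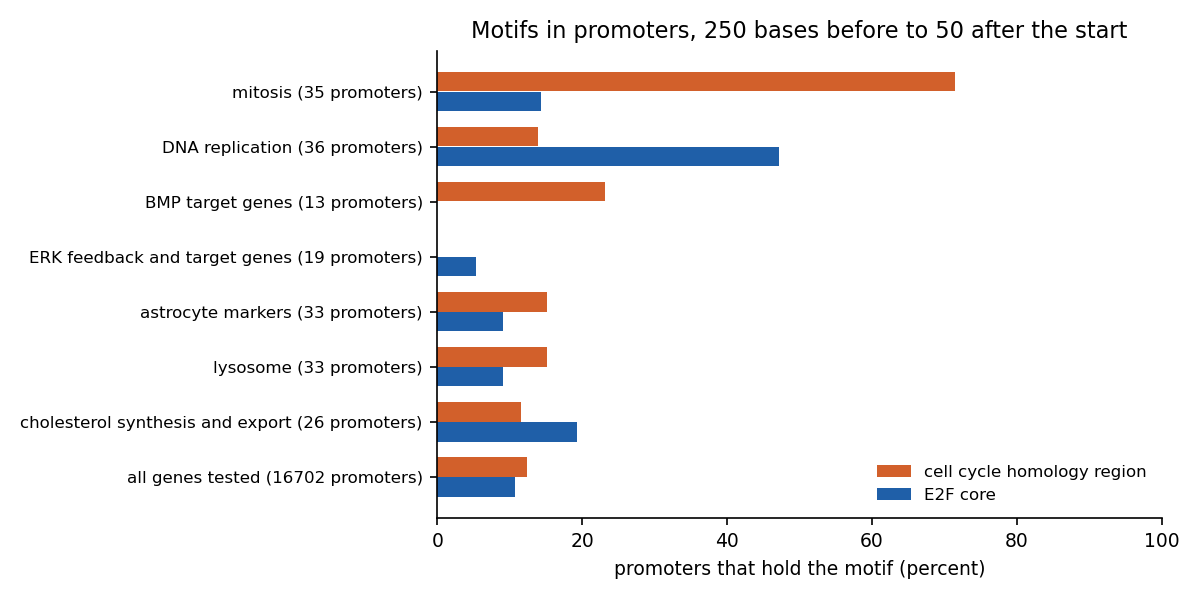
Percent of promoters (250 bases before to 50 after the start) that hold the CHR letters TTTGAA or the E2F letters, for 7 gene lists and for all genes tested. The CHR bar is highest for mitosis genes at 71.4% and the E2F bar for DNA replication genes at 47.2%, against 12.4% and 10.7% of all genes tested.

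The regulators of entry into the cycle, cyclins that promote it and inhibitors that hold it back, moved in both directions. Of 10 D cyclins and inhibitors of cyclin-dependent kinases, 3 were higher and 4 lower. Ccnd1, cyclin D1, had 1545, 1538, 1387 and 1366 CPM in NSCs and 34.3, 21.8, 70.2 and 111 CPM in AGES, lower in all AGES libraries, and fell by 4.62 on the log2 scale (edgeR adjusted p = 9.98e-10, SE 0.40). Ccnd2, cyclin D2, had 786 ± 71.3 CPM in NSCs and 796 ± 230.2 CPM in AGES, a log2 fold change of 0.02 with a standard error of 0.17 (edgeR adjusted p = 0.963). The inhibitor Cdkn2b (p15) rose from 12.999 ± 6.41 to 196 ± 20.2 CPM, and Cdkn1b (p27) and Cdkn2a rose by 0.74 and 0.76 on the log2 scale. Cdkn1a (p21), the inhibitor induced by p53, went the other way, from 109 ± 24.7 to 21.1 ± 7.11 CPM, and Cdkn1c had 3 counts or fewer in every library.

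Histone genes split by direction. Of 40 genes with Hist symbols, 32 were higher and 1 lower in AGES, with a median log2 fold change of 2.23, and of 10 variant genes 1 was higher and 7 lower. This split was made after the values of the family were seen, and 2 Hist genes were lower without AGES replicate 1 and 2 variants higher without NSC replicate 2. Hist1h2bc rose from 8.76 ± 0.832 to 141 ± 10.6 CPM, Hist1h4i from 2.47 ± 0.389 to 81.4 ± 16.4 CPM and the linker gene Hist1h1c from 20.7 ± 3.59 to 112 ± 26.5 CPM, whereas the variants H2afz and H2afx fell from 455 ± 34.2 to 85.1 ± 4.87 CPM and from 154 ± 12.6 to 9.98 ± 0.668 CPM. Canonical histone transcripts of S phase lack a poly(A) tail and the libraries were made from polyadenylated RNA, so these counts hold only the polyadenylated forms and say nothing about total histone mRNA.

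Astrocyte identity genes rose, with exceptions among those most used as markers. Of 30 astrocyte markers, 21 were higher, 3 lower and 6 not called, with a median log2 fold change of 2.17 (5 lower without AGES replicate 1). Gfap, on chromosome 11 from 102887000 to 102901000 of GRCm38, had 36.1, 33.1, 29.0 and 33.3 CPM in the NSC libraries and 48346, 50245, 50485 and 52936 CPM in the AGES libraries, which differed among themselves far less than the groups did. Aqp4, the water channel of astrocyte endfeet, had 1.70, 2.03, 1.34 and 1.37 CPM in NSCs and 273, 156, 235 and 315 CPM in AGES, a log2 fold change of 7.24 (edgeR adjusted p = 1.29e-16, SE 0.29). Clu, clusterin, rose from 9.28 ± 0.726 to 348 ± 47.1 CPM and Apoe, the main lipid carrier of the brain, from 67.4 ± 19.8 to 1023 ± 144 CPM. S100b, a calcium-binding protein, rose from 29.6 ± 8.18 to 271 ± 119 CPM, the chloride channel gene Ttyh1 from 51.0 ± 29.2 to 966 ± 189.6 CPM, Atp1b2, which encodes the antigen used to isolate astrocytes, from 48.9 ± 13.5 to 911 ± 121 CPM, and the glycolytic enzyme gene Aldoc from 389.8 ± 63.7 to 3309 ± 67.2 CPM.

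Aldh1l1, a folate enzyme widely used to label astrocytes, had 22.2, 30.3, 9.30 and 13.3 CPM in NSCs and 17.3, 11.2, 11.5 and 19.9 CPM in AGES, and the groups overlapped (edgeR adjusted p = 0.284), though without NSC replicate 3 it passed as lower, with a log2 fold change of −0.55. Gja1, connexin 43, had 16.01, 16.8, 13.5 and 15.8 CPM in NSCs and 20.4, 11.7, 3.68 and 5.40 CPM in AGES (edgeR adjusted p = 0.0785), and it passed the test as lower, with a log2 fold change of −1.15, when AGES replicate 1 was left out. Gjb6, connexin 30, stayed under 1 CPM in both groups. The glutamate transporter Slc1a3 was at 1499 ± 140.1 CPM in NSCs and 1265 ± 231 CPM in AGES (edgeR adjusted p = 0.107), a log2 fold change of −0.25 with a standard error of 0.13, and passed as lower without AGES replicate 1, at −0.35, while Slc1a2 rose from 210.2 ± 63.1 to 547 ± 136 CPM. Glul, glutamine synthetase, was 0.31 lower on the log2 scale (edgeR adjusted p = 0.0266), a call that was lost under 9 of the alternatives, Acsbg1, an acyl-CoA synthetase, fell from 648 ± 68.6 to 190.3 ± 52.3 CPM, and Nfib fell by 0.39 on the log2 scale, without passing in a fit of only AGES and NSCs.

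Transcription factors linked to the astrocyte fate rose more often than they fell, 14 against 5 of 20. Sox9, which drives the switch to gliogenesis, rose from 79.3 ± 4.78 to 274 ± 34.0 CPM, Zbtb20 from 75.0 ± 24.6 to 318 ± 19.3 CPM, Foxo3 from 36.1 ± 8.25 to 274 ± 47.3 CPM and Atf3 from 1.58 ± 0.868 to 33.1 ± 15.3 CPM. Nfia rose only from 190.1 ± 7.94 to 225 ± 18.4 CPM, a call lost when scaled by library size alone, and Nfix from 201 ± 13.1 to 453 ± 51.3 CPM.

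Progenitor genes did not fall as a block. Of 24 tested, 7 were higher and 12 lower, with a median of −0.65. Olig2, a factor of the oligodendrocyte lineage that is also high in cultured NSCs, had 651, 531, 674 and 643 CPM in NSCs and 38.1, 43.2, 49.6 and 47.7 CPM in AGES, and fell by 3.81 on the log2 scale (edgeR adjusted p = 2.66e-12, SE 0.25). Olig1 fell from 1334 ± 95.5 to 239 ± 47.1 CPM, Sox3 from 67.5 ± 3.44 to 5.44 ± 2.07 CPM, and the chromatin proteins Hmga2 and Hmgb2 from 64.4 ± 11.6 to 6.81 ± 1.24 CPM and from 333 ± 35.2 to 7.10 ± 0.380 CPM. Sox2, the factor most closely tied to neural stem cells, rose from 98.5 ± 14.05 to 219.8 ± 35.5 CPM, Pax6 from 38.1 ± 1.17 to 108 ± 11.2 CPM, and the RNA-binding protein gene Msi1 from 46.8 ± 4.32 to 188 ± 23.03 CPM. Fabp7, a fatty acid binding protein of radial glia, fell from 806 ± 157 to 369 ± 86.1 CPM.

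The intermediate filaments changed in composition. Vim had 1910.5, 2232, 1646 and 1634 CPM in NSCs and 7016, 5816, 9873 and 10534 CPM in AGES, higher in all AGES libraries, and Synm, synemin, rose from 1.87 ± 0.280 to 38.4 ± 18.01 CPM. Nes, nestin, had 1340.0, 1258, 1593 and 1402 CPM in NSCs and 594, 459, 757 and 817 CPM in AGES and fell by 1.09 on the log2 scale (edgeR adjusted p = 1.05e-06, SE 0.16). Nes thus remained at a measurable level in every AGES library.

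Genes of neurotransmitter handling fell more often than they rose, 10 against 4 of 19. The GABA transporter gene Slc6a13 was at least 24.6-fold lower from 2.46 ± 0.510 CPM, the cystine/glutamate exchanger Slc7a11 fell from 12.6 ± 4.09 to 1.34 ± 0.500 CPM, and the glutamine exporter Slc38a3 from 231 ± 27.9 to 36.2 ± 5.52 CPM. Abat, which degrades GABA, rose from 67.1 ± 19.4 to 459.5 ± 35.2 CPM, Glud1, glutamate dehydrogenase, from 174 ± 13.7 to 468 ± 18.5 CPM, and the glutamine transporter Slc38a1 from 149 ± 5.27 to 746 ± 182 CPM.

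Receptors and contacts of astrocytes moved more unevenly. Of 16 purinergic receptor genes, 5 were higher and 3 lower (5 without NSC replicate 1): the adenosine receptor Adora1 rose from 137 ± 8.13 to 739 ± 93.4 CPM and the ATP receptor P2ry1, a source of calcium transients, from 13.5 ± 2.10 to 110.1 ± 31.4 CPM. Of 15 endfoot channels, connexins and anchoring proteins, 9 were higher and 1 lower (3 lower without AGES replicate 1, 2 without AGES replicate 2 or NSC replicate 2, and none without NSC replicate 4). Besides Aqp4, the potassium channel Kcnj10 (Kir4.1) rose from 2.55 ± 0.958 to 17.0 ± 6.74 CPM, and Aqp9, at 3 counts or fewer in NSC libraries, was at least 74.9-fold higher. Over all 83 potassium channel genes tested, 22 were higher and 19 lower, and Kcnc1 fell from 432 ± 51.8 to 29.9 ± 2.59 CPM.

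Of 17 synapse-forming and neurotrophic factors, 11 were higher and none was lower in edgeR's test (1 at an unadjusted p under 0.05, none with DESeq2, and 1 called without AGES replicate 3 or NSC replicate 2), with a median of 1.80. Gpc4, a glypican that recruits AMPA receptors, rose from 21.8 ± 4.19 to 292 ± 77.7 CPM, Gpc6 from 45.9 ± 6.79 to 229 ± 40.3 CPM, Sparcl1, hevin, from 1159 ± 105 to 4034 ± 763 CPM, and the phagocytic receptor Megf10 from 13.3 ± 7.63 to 57.2 ± 10.6 CPM. The thrombospondins Thbs1 and Thbs2 rose to 11.5 ± 3.10 and 13.5 ± 3.09 CPM from 2.02 ± 0.369 and 1.16 ± 0.316 CPM.

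Of 40 matrix and adhesion genes, 18 were higher and 11 lower. Fn1 rose as given above, the laminin receptor subunit Itga6 rose from 36.6 ± 10.96 to 494 ± 59.5 CPM and the adhesion molecule L1cam from 0.169 ± 0.0578 to 18.5 ± 3.77 CPM, while Vcan, versican, fell from 292 ± 23.3 to 23.9 ± 13.8 CPM. The laminin coating was given to AGES only. Of 14 YAP and TEAD target genes, 8 were higher and 2 lower, with Amotl2 at 11.2 ± 1.53 and 248 ± 34.0 CPM and Ccn1 at 21.7 ± 5.73 and 159.7 ± 52.4 CPM. Of 55 clustered protocadherins, which give cells surface identities, 30 were higher and 9 lower. Pcdhb22 rose from 70.7 ± 4.22 to 268 ± 12.1 CPM and Pcdhb5 fell from 48.3 ± 3.90 to 21.4 ± 3.70 CPM. These genes are close copies of each other, so reads may be shared between them.

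The translation machinery was lower almost throughout. Of 81 cytosolic ribosomal protein genes, none was higher in edgeR's test (and none at an unadjusted p under 0.05 or with DESeq2), and 80 were lower, with a median log2 fold change of −1.12, and together they took 5.07% of NSC counts and 2.18% of AGES counts. Rpsa had 2155, 3088, 2229 and 1928 CPM in NSCs and 663, 718, 669 and 643 CPM in AGES, and fell by 1.80 on the log2 scale (edgeR adjusted p = 7.76e-12, SE 0.14). Rpl12 fell from 923 ± 145 to 237 ± 11.4 CPM, and Rpl22, the smallest decrease among the members that met all criteria for naming, from 304 ± 21.1 to 219 ± 13.4 CPM. Many ribosomal protein genes have processed copies, so their counts may be split. Of 55 initiation factor genes, 44 were lower and 4 higher. Eif4a1, the helicase of cap-dependent initiation, fell from 762 ± 48.9 to 239.6 ± 30.4 CPM while its paralog Eif4a2 rose from 241 ± 13.9 to 411 ± 25.5 CPM.

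Proteasome and lysosome genes moved in opposite directions. Of 38 proteasome subunit genes, 33 were lower and 1 was higher, with a median of −0.61, Psma7 falling from 199 ± 16.9 to 87.2 ± 2.94 CPM and Psmd5, an assembly factor, rising from 68.5 ± 6.36 to 150.3 ± 17.6 CPM. Of 37 lysosome genes, 28 were higher and 2 lower, with a median of 0.78, and their summed level was 4917 ± 206 CPM in NSCs and 18114 ± 2402 CPM in AGES. Psap, the precursor of the saposins that help to degrade sphingolipids, had 865, 872, 965 and 837 CPM in NSCs and 4534, 4192, 4174 and 4397 CPM in AGES, a log2 fold change of 2.29 (edgeR adjusted p = 1.68e-17, SE 0.089). The membrane protein Lamp1 rose from 584 ± 62.1 to 2009 ± 247 CPM and the transcription factor Tfeb, which governs lysosomal genes, from 10.1 ± 0.262 to 32.9 ± 1.97 CPM, whereas Glb1 was 1.25 lower on the log2 scale. Of 12 cathepsins, 7 were higher and none was lower in edgeR's test, at an unadjusted p under 0.05 or with DESeq2, and Ctsb had 306, 326, 298 and 299 CPM in NSCs and 2127, 1766, 3966 and 4806 CPM in AGES, highest in AGES replicates 3 and 4. Of 18 subunits of the proton pump that acidifies lysosomes, 15 were higher and none lower by the same measures (1 was lower without AGES replicate 4), with Atp6v0a2 at 93.4 ± 5.85 and 456 ± 184 CPM.

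Of 35 autophagy genes, 26 were higher and 6 lower. The receptor Optn rose from 10.5 ± 0.924 to 62.7 ± 5.13 CPM, Gabarapl1, which coats autophagosomes, from 78.5 ± 1.504 to 376 ± 14.6 CPM, and Wipi1 from 28.03 ± 7.69 to 157 ± 13.7 CPM. Respiratory genes were slightly lower: of 36 nuclear genes of complex I, 22 were lower and 5 higher with a median of −0.31, and of 13 mitochondrially encoded genes 9 were lower and 1 was higher (5 lower without NSC replicate 2). That member was mt-Nd5, at 1978 ± 349 and 3205 ± 299.8 CPM, which overlaps mt-Nd6 on the opposite strand. The mitochondrially encoded genes took 2.25% of counts in NSCs (1.65% to 2.82%) and 1.81% in AGES (1.66% to 2.07%), with overlapping libraries.

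**Figure D4:**
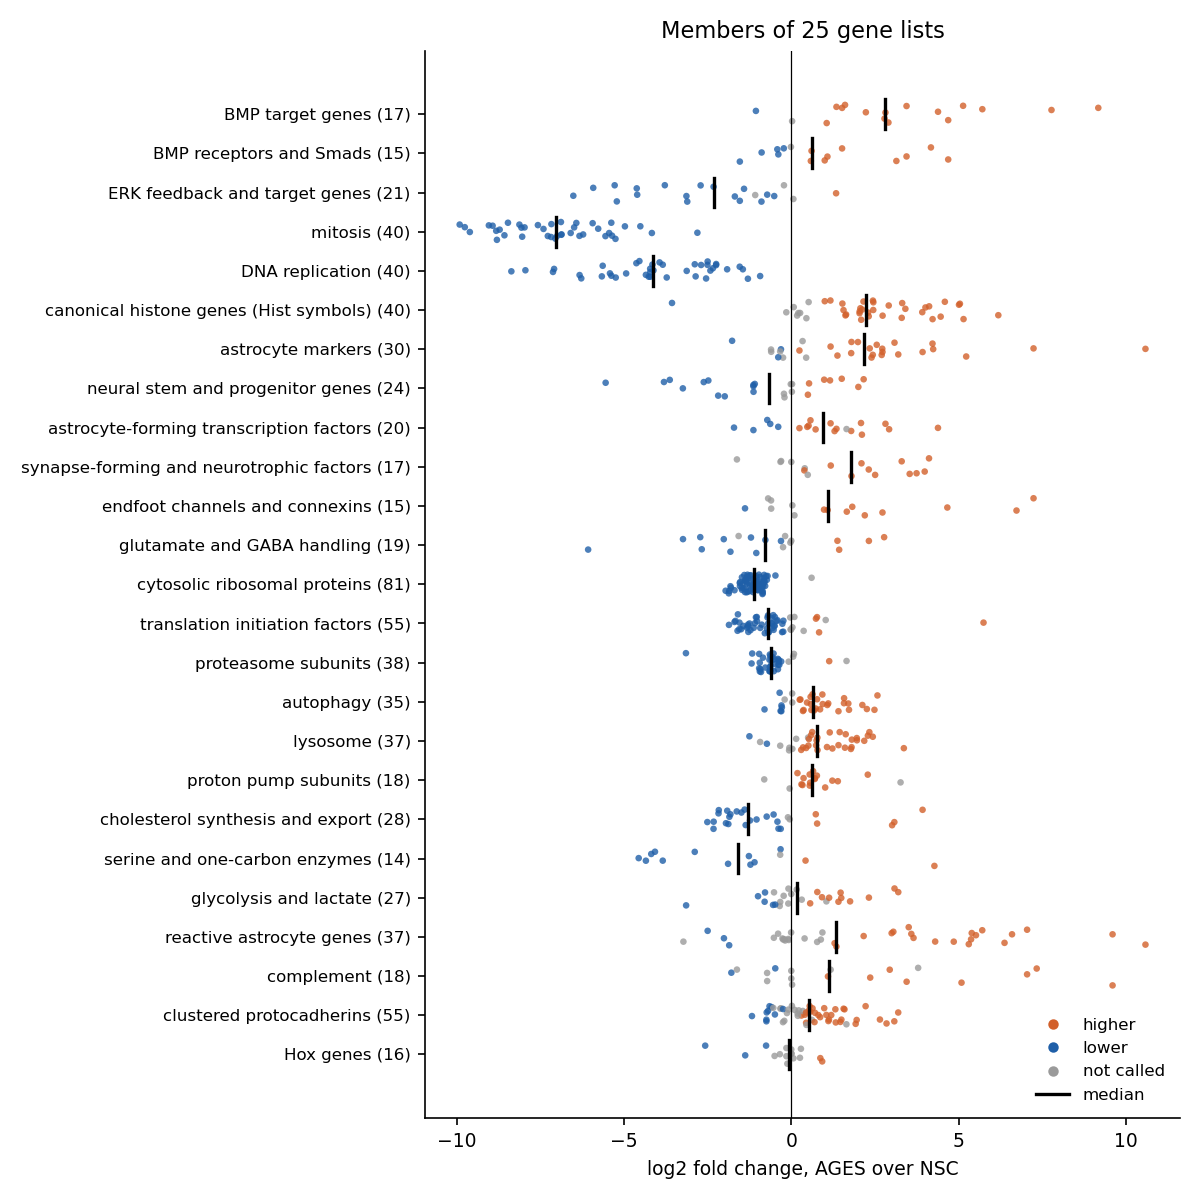
Log2 fold change (AGES minus NSC) of each member of 25 gene lists, 1 point per gene coloured by the edgeR call, with a black bar at the list's median. Mitosis (−7.02), DNA replication (−4.13) and ERK feedback genes (−2.32) lie lowest and BMP target genes (2.81) highest, and ribosomal genes form a narrow band at −1.12.

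Biosynthetic pathways of growing cells fell as well. Of 28 genes of cholesterol synthesis and export, 21 were lower and 5 higher, with a median of −1.30. Fdps, an enzyme of the pathway, fell from 40.2 ± 9.31 to 7.05 ± 0.614 CPM. The genes that rose included Apoe and, from 18.8 ± 5.29 to 159 ± 28.3 CPM, Abca1, which loads lipid onto it, as well as the sterol-sensing receptor Nr1h3 and Nr1h2, by 3.01 and 0.73 on the log2 scale, and 1 synthesis enzyme, Hsd17b7, by 0.77. Of 14 enzymes of serine and one-carbon metabolism, which feed nucleotide synthesis, 11 were lower and 2 higher. Mthfd1l had 115, 175, 144 and 114 CPM in NSCs and 4.49, 4.70, 6.92 and 7.08 CPM in AGES and fell by 4.56 on the log2 scale (edgeR adjusted p = 1.75e-15, SE 0.21), and Shmt1 fell from 125 ± 22.7 to 6.88 ± 1.03 CPM. Aldh1l2, the mitochondrial relative of Aldh1l1, went against the list and rose from 1.24 ± 0.452 to 24.2 ± 7.58 CPM, and Phgdh, the first enzyme of serine synthesis, rose by 0.43, a call that was lost without AGES replicate 1.

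Metallothioneins, small proteins that bind zinc and copper, rose strongly. Mt2 had 1.86, 2.64, 2.48 and 1.84 CPM in NSCs and 605, 509, 562 and 440.0 CPM in AGES, a log2 fold change of 7.90 (edgeR adjusted p = 4.07e-22, SE 0.16), Mt1 rose from 47.0 ± 5.59 to 2536 ± 321 CPM and the brain form Mt3 from 56.2 ± 9.59 to 2140.3 ± 397 CPM. In the same list, which joins them with NRF2 genes, 9 of 20 were higher and 5 lower, Slc7a11 among the latter. The zinc transporter Slc39a12 also rose, from 1.72 ± 0.335 to 384 ± 81.0 CPM. Over 300 solute carriers tested, 106 were higher and 80 lower.

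The counts for glucose metabolism depended on NSC replicate 2. The summed level of the glycolysis and lactate genes was 14030 CPM in that library, 7605 to 9197 CPM in the other NSC libraries and 12709 to 15171 CPM in AGES. Of 27 genes, 11 were higher and 6 lower with all libraries, and 17 were higher and 5 lower without NSC replicate 2. Pygb, a glycogen phosphorylase, rose from 158 ± 26.6 to 1449 ± 250.4 CPM, the lactate transporter Slc16a1 from 119.6 ± 22.0 to 597 ± 53.4 CPM, and Hk2, the hexokinase of growing cells, had 80.1, 109, 87.5 and 74.7 CPM in NSCs and 3.82, 4.50, 15.1 and 16.2 CPM in AGES, lower in all AGES libraries. The same library stood apart in Pdk1, with 9.03, 70.1, 8.25 and 6.92 CPM in NSC replicates 1 to 4, in Ero1l, with 77.0, 387, 56.2 and 58.8 CPM, and in Vegfa, with 91.8, 349, 76.9 and 85.7 CPM. Pdk1 did not pass the test with all libraries, against 50.9, 41.8, 53.8 and 49.6 CPM in AGES, and rose by 2.60 on the log2 scale without NSC replicate 2. Pdk1, Ero1l and Vegfa are known hypoxia-induced genes. A list of 20 hypoxia genes, put together after this was seen, summed to 4005 CPM in NSC replicate 2 and to 1747 to 2028 CPM in the other NSC libraries. Their part in the values of the glycolysis genes was not tested.

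**Figure D5:**
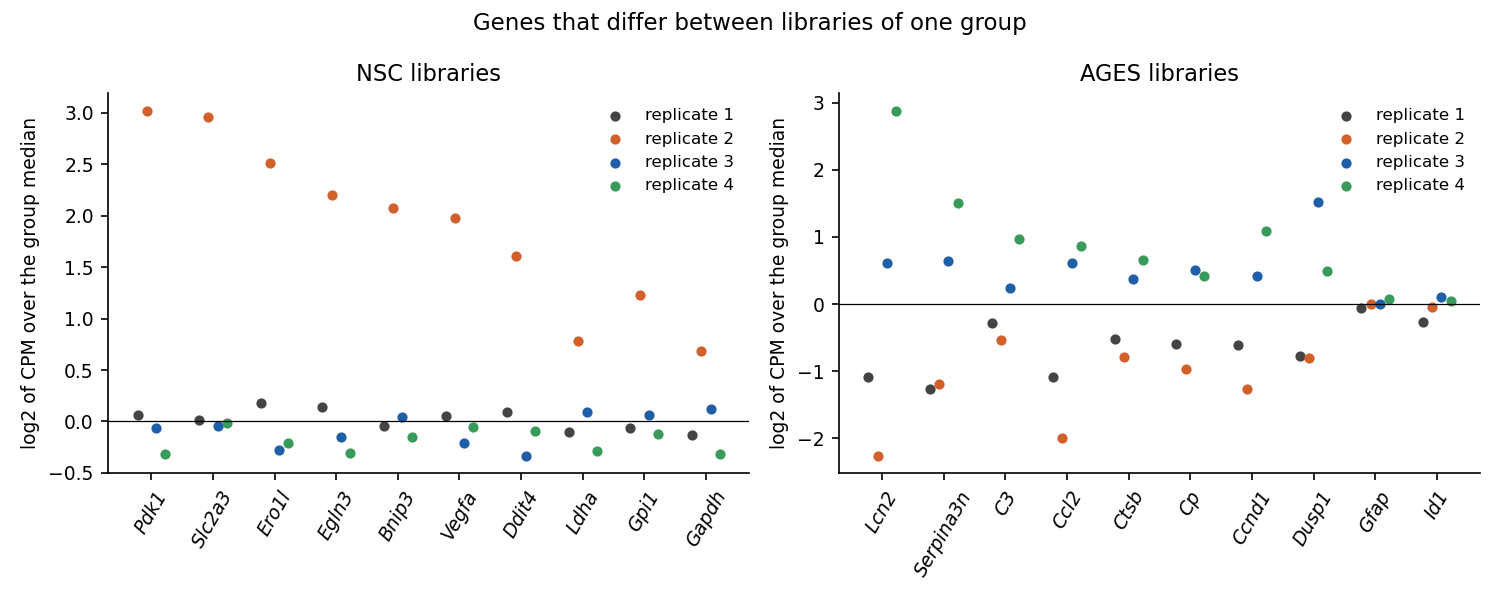
Log2 ratio of each library's CPM to the median of its group, for 10 genes in the 4 NSC libraries and 10 genes in the 4 AGES libraries, chosen after their values were seen. NSC replicate 2 lies highest for Pdk1, Ero1l and Vegfa, and AGES replicates 3 and 4 lie above replicates 1 and 2 for Lcn2, Serpina3n and Cp.

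Genes associated with reactive astrocytes were higher in AGES for 20 of 37 members and lower for 3, the remaining 14 not being called. Gfap, already counted among the astrocyte markers, is also a member of this list, so the lists are not separate. Serpina3n, an acute-phase protease inhibitor, had 4.11, 2.702, 3.85 and 3.95 CPM in NSCs and 112, 118, 420.0 and 764 CPM in AGES, a log2 fold change of 6.60 (edgeR adjusted p = 4.73e-10, SE 0.53). Lcn2, lipocalin 2, had 0.587, 0.334, 0.828 and 0.468 CPM in NSCs and 9.09, 4.03, 29.5 and 142 CPM in AGES. For both genes every AGES library exceeded every NSC library, with AGES replicates 3 and 4 the highest, and Lcn2 differed far more among AGES libraries than Gfap did. C3 varied in the same direction, with 1142, 965, 1647 and 2733 CPM in the AGES libraries, and Cp, ceruloplasmin, with 1181, 912, 2523 and 2386 CPM. Fkbp5 and Emp1 fell with log2 fold changes of −2.50 and −1.86. B3gnt5 was called lower but was near 0 in both groups, at 0.143 CPM in NSCs and 3 counts or fewer in every AGES library. Its fold is therefore not estimated, and it did not pass the test once AGES replicate 3 or NSC replicate 2 was left out. Without AGES replicate 3 or without replicate 4, 20 members were still counted as higher.

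Of 18 complement genes, 8 were higher and 2 lower. Besides C3 they included C4b, from 5.93 ± 2.33 to 202 ± 20.7 CPM, the proteases C1ra and C1s1, from 1.67 ± 0.474 to 12.9 ± 6.15 CPM and from 1.65 ± 0.170 to 18.02 ± 7.30 CPM, and the inhibitors Serping1, from 0.386 ± 0.315 to 51.4 ± 5.37 CPM, and Cd59a, from 0.225 ± 0.181 to 36.9 ± 9.60 CPM. Complement components and complement inhibitors thus rose side by side. Of 29 interferon-stimulated genes, 12 were higher and 3 lower. Ifit3 rose from 0.295 ± 0.242 to 15.7 ± 2.41 CPM. Of 16 genes of MHC class I presentation 4 were higher and 6 lower. Their summed level was lower in AGES, at 1640 ± 116 CPM against 3060 ± 92.7 CPM in NSCs. Among the 4 higher genes, the chaperone Tapbp rose from 31.0 ± 1.001 to 196 ± 16.9 CPM and the light chain B2m from 81.5 ± 16.4 to 165 ± 38.5 CPM.

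In the interleukin 6 and STAT3 axis, which acts beside BMP in astrocyte formation, 7 of 15 genes were higher and none was lower in edgeR's test, at an unadjusted p under 0.05 or with DESeq2 (1 was lower without AGES replicate 4). The shared receptor Il6st (gp130) rose from 142 ± 11.9 to 823 ± 73.4 CPM, Stat3 from 196 ± 21.0 to 480.3 ± 61.8 CPM, the ligand gene Clcf1 from 0.496 ± 0.363 to 21.0 ± 10.3 CPM and the feedback inhibitor Socs3 from 3.47 ± 0.491 to 14.2 ± 6.77 CPM. Of 22 chemokines and cytokines, 8 were higher and none was lower in edgeR's test (2 at an unadjusted p under 0.05, none with DESeq2, and 1 called without AGES replicate 2, AGES replicate 4 or NSC replicate 3). Csf1, the growth factor of microglia, rose from 49.8 ± 12.1 to 476 ± 84.4 CPM, Cx3cl1, fractalkine, from 44.0 ± 4.97 to 619 ± 54.8 CPM and Tgfb2 from 23.1 ± 3.80 to 167 ± 36.7 CPM.

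Among the other developmental pathways, 7 of 22 Notch genes (31.8%) were higher and 7 lower, near the shares of all genes tested (31.7% and 34.0%). The ligand Jag1 fell from 179 ± 27.2 to 12.8 ± 3.08 CPM and the feedback gene Nrarp from 30.3 ± 11.5 to 1.77 ± 0.407 CPM, while the receptor Notch2 rose from 93.2 ± 28.1 to 249.8 ± 28.2 CPM. Of the Hes target genes, Hes1 was at 30.7, 57.4, 20.2 and 30.9 CPM in NSCs and 18.9, 18.998, 23.5 and 23.2 CPM in AGES, lower by 0.72 on the log2 scale but with overlapping groups and the highest value in NSC replicate 2 (edgeR adjusted p = 0.00208, and 0.0654 in a fit of only AGES and NSCs), and Hes5, which overlaps Gm20421 on the opposite strand, rose from 1.90 ± 1.21 to 4.30 ± 1.43 CPM, also with overlap. Of 12 Hedgehog genes, 4 were higher and 6 lower, and the pathway antagonist Hhip fell from 18.5 ± 8.57 to 0.212 ± 0.126 CPM. Of 25 Wnt genes, 9 were higher and 12 lower. Wnt7a fell from 113 ± 29.8 to 28.7 ± 4.20 CPM and the target Axin2 from 96.3 ± 9.16 to 28.9 ± 6.13 CPM, while Ctnnb1, beta-catenin, rose from 883 ± 11.8 to 1884 ± 47.8 CPM.

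Of 20 thyroid and retinoid genes, 7 (35%) were higher, near the 31.7% of all genes tested, 3 (15%) lower and 10 not called. Among the higher genes, the thyroid hormone receptor Thra rose from 149.8 ± 10.98 to 878 ± 41.1 CPM, the retinaldehyde dehydrogenase Aldh1a1 from 20.3 ± 7.45 to 461 ± 28.7 CPM and the retinoid-degrading enzyme Cyp26b1 from 0.626 ± 0.860 to 19.2 ± 12.01 CPM. Of 21 immediate early genes, 11 were higher and 4 lower: Fos rose from 6.06 ± 4.42 to 68.2 ± 27.3 CPM and Junb from 9.49 ± 4.25 to 84.5 ± 22.7 CPM, while Egr1, also an ERK target, fell from 67.3 ± 34.3 to 25.3 ± 4.67 CPM with overlapping libraries (23.6 to 104 CPM in NSCs and 19.5 to 30.9 CPM in AGES). Of 16 Hox genes tested, 2 were higher, 3 lower and 11 not called (1 higher without AGES replicate 1 or NSC replicate 4), with Hoxa2 at 19.2 ± 1.82 and 36.5 ± 4.63 CPM and Hoxa3 at 48.9 ± 3.59 and 18.8 ± 1.10 CPM, and of 26 patterning factors 10 were higher and 5 lower. Hoxa2 and Hoxa3, which mark the hindbrain, were thus detected in both groups, and the hindbrain border factor En1 rose from 6.55 ± 1.44 to 12.2 ± 2.73 CPM.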

How the data were processed

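RNA-seq counts of 4 AGES and 4 NSC libraries were compared within a series of 24 libraries, with groups taken from the labels. Libraries were stranded and made from poly(A)-selected RNA, and the authors aligned reads to GRCm38 with STAR 2.7.3a and counted them with featureCounts. The deposited values are whole-number counts per gene, without normalization. The counting options in the methods include no strand option. The annotation and these settings can change the level of overlapping genes and of genes with near-identical copies. Identifiers of 49412 of the 49671 genes were found in Gencode vM21, which gave gene types and positions.

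Genes were filtered with filterByExpr, scaled by TMM and tested in R 4.3.3 with edgeR 4.0.16 (quasi-likelihood, robust, 1 fit of the 6 groups, two-sided contrast of AGES and NSCs) and p-values were adjusted over 19691 genes by Benjamini-Hochberg (called under 0.05). The SE of a log2 fold change was its size over the root of its F statistic. A group with 3 counts or fewer in all 4 libraries was taken as being at the floor, which covers counting error only, and folds against it are lower bounds from that floor. The libraries held 28114306 to 36911160 counts. Replicates of AGES and NSCs are cultures of 1 cell line, so p-values do not cover differences between lines. They rest on a spread estimated over all 24 libraries, primary astrocytes included, and not on these cultures alone. On simulated counts for this comparison (15815 genes passing the filter), edgeR recovered 192 of 200 changed genes with 12 false calls. The simulation changed only these 200 genes and gave every gene the same fixed dispersion. It therefore did not test the scaling or the calls where most genes differ, as they did in these data.

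The members and gene lists were chosen with earlier results of these data known. Genes named are the first 10 higher and lower by log2 fold change and the first 10 by CPM difference (adjusted p under 0.05, at least 10 CPM in the higher group, no overlap between the groups), a list of key genes, and in each gene list the first 3 in each direction and the 2 with the highest level. Other genes were named where a count or the role of a gene in its pathway called for it, after their values were seen. Alternatives were DESeq2 1.42.0 (Wald test, size factors), scaling by library size, no filter or at least 10 counts in every library, a log2 fold change over 1, a fit of the 2 groups with and without a replicate block, a floor of 10 counts, promoters without the bases after the start, and leaving out each library. Promoters were RefSeq sequences on GRCm38.p6, whose reading direction was checked against Gencode transcripts (89 of 117 matched in sense and 0 in reverse). Some results on single genes are not reported here.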

Additional observations from a re-analysis of the deposited data

Results flagged for a closer look

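For each named gene, the 4 libraries of each group were searched for 1 library whose distance to the nearest of the others took up nearly the whole range of the group (Dixon's criterion at the 95% level). Of 469 groups of 4 libraries, 30 stood out, and chance alone sets apart about 1 in 20. NSC replicate 2 was the library set apart in 12 of them, AGES replicate 4 in 1. No cause was tested for any of these values.

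In NSC replicate 2, the hypoxia-induced genes were far above the other NSC libraries, with Pdk1 highest at 70.1 CPM (6.92 to 9.03 in the others), Ero1l highest at 387 CPM (56.2 to 77.0 in the others) and Vegfa highest at 349 CPM (76.9 to 91.8 in the others). Among its other genes, the same library had Fgfr3 highest at 78.3 CPM (26.6 to 34.2 in the others), Hes5 highest at 3.70 CPM (1.11 to 1.40 in the others), Aldh1l2 highest at 1.91 CPM (0.978 to 1.05 in the others), B2m highest at 106 CPM (71.2 to 75.4 in the others) and Mmp15 highest at 1839 CPM (1649 to 1666 in the others). It also had Acsbg1 lowest at 547 CPM (673 to 697 in the others), Bmpr1a lowest at 246 CPM (302 to 308 in the others), En1 lowest at 4.40 CPM (7.04 to 7.42 in the others) and Kif11 lowest at 175 CPM (226 to 229 in the others).

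NSC replicate 3 had Serpine2 highest at 4668 CPM (2994 to 3188 in the others), Fabp7 highest at 1039 CPM (701 to 755 in the others), Hsp90ab1 highest at 4518 CPM (3653 to 3767 in the others), Mcm6 highest at 379.8 CPM (304 to 310.0 in the others) and Cdk1 highest at 282 CPM (244 to 246 in the others). It also had Sox2 lowest at 77.5 CPM (104 to 107 in the others) and Kif1b lowest at 259 CPM (299 to 303 in the others). In NSC replicate 1, Rfx2 was highest at 9.71 CPM (8.06 to 8.15 in the others).

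In AGES the libraries set apart were spread over the replicates. AGES replicate 1 had Cdk1 highest at 8.15 CPM (6.12 to 6.29 in the others), mt-Nd5 highest at 3652 CPM (3011 to 3093 in the others) and Gria4 lowest at 6.01 CPM (8.24 to 8.62 in the others). AGES replicate 2 had Tob1 highest at 97.9 CPM (89.9 to 90.7 in the others) and Ctnnb1 lowest at 1813 CPM (1899 to 1915 in the others). AGES replicate 3 had Bambi highest at 39.7 CPM (30.5 to 31.8 in the others), Malat1 highest at 3067 CPM (2729.8 to 2746 in the others), Etv4 lowest at 1.41 CPM (4.41 to 4.99 in the others) and Kif21a lowest at 106 CPM (133 to 138 in the others). AGES replicate 4 had Vcan highest at 44.5 CPM (15.3 to 19.03 in the others).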

How the results depend on the processing

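The number of genes past the threshold stayed within 1.5 times the value given, 12937 genes with 6246 higher and 6691 lower, under every alternative fit, and fell to 7476, with 3846 higher and 3630 lower, when a log2 fold change over 1 was also required. DESeq2's Wald test gave 7016 higher and 6378 lower genes, DESeq2's size factors 6695 and 6196, and library size alone 5829 and 7126, with a median of −0.07. Without a filter on low counts the numbers were 6876 and 6394, and 4987 and 5205 when all libraries had to hold 10 counts or more, where fewer genes were tested. Leaving out 1 library at a time gave 12576 to 12851 genes in all. AGES and NSC replicates share their numbers in the labels, but same-numbered libraries did not deviate together (correlations of 0.042, −0.062, −0.014 and −0.089), so the numbers were not taken as pairs. A fit of only AGES and NSCs called 11497 genes, and with a replicate block 11122.

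Of the results on single named genes, 3963 of the repeats kept direction and side of the threshold, 19 lost the call, 12 gained one and none reversed. Glul, whose decrease was small, lost its call in 9 settings, and Hes1 and Acvr2a theirs in the fit of only AGES and NSCs. Of the counts of list members, 2178 stayed within 1.5 times and 158 did not, 53 of these under the fold criterion and 30 under the filter of 10 counts. Small differences rest on 4 cultures of 1 line, and genes at the floor have only bounds.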

Other observations

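Transmitter receptors differed gene by gene between NSCs and AGES. Of 23 glutamate receptor genes tested, 7 were higher and 6 lower in AGES. Grm5, the metabotropic receptor 5 that couples to calcium release in young astrocytes, had 33.0, 23.9, 20.3 and 31.2 CPM in NSCs and 0.117, 0.0580, 0 and 0.165 CPM in AGES, and fell by 8.30 on the log2 scale (edgeR adjusted p = 1.22e-13, SE 0.45). Grm3 fell from 15.9 ± 2.86 to 2.25 ± 0.671 CPM and the AMPA receptor subunit Gria4 from 64.9 ± 22.1 to 7.82 ± 1.22 CPM, while Grm4 rose from 1.10 ± 0.554 to 36.7 ± 19.997 CPM and the NMDA receptor subunits Grin3a and Grin2b from 27.7 ± 10.9 to 102 ± 24.6 CPM and from 0.147 ± 0.0848 to 10.7 ± 7.32 CPM. Of 16 GABA-A receptor subunits, 2 were higher and 2 lower, with Gabra2 at 48.8 ± 9.59 and 3.16 ± 0.990 CPM. Of 32 axon guidance genes, 16 were higher and 9 lower. The netrin gene Ntn1 fell from 569 ± 104 to 169.7 ± 19.6 CPM and the semaphorin gene Sema5a from 27.4 ± 10.3 to 1.38 ± 0.728 CPM, whereas the ephrin receptors Epha4 and Epha5 rose from 13.1 ± 2.78 to 111 ± 13.3 CPM and from 12.003 ± 5.02 to 113 ± 27.8 CPM.

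Single growth and lineage genes moved as well. Of 19 imprinted genes, 4 (21.1%) were higher, 4 (21.1%) lower and 11 not called. These shares lay under the 31.7% and 34.0% of all genes tested. Among the lower genes, Mest fell from 997 ± 132 to 56.9 ± 20.5 CPM, Peg10 from 1199 ± 168 to 115 ± 46.9 CPM and Igf2r from 185 ± 32.5 to 22.97 ± 5.20 CPM. In the forkhead family, 9 of 32 (28.1%) were higher and 10 (31.25%) lower, near the shares of all genes tested. Its member Foxm1, a driver of mitotic genes, was at 173 ± 8.11 and 7.58 ± 0.573 CPM. Foxj1, the regulator of motile cilia, rose from 18.4 ± 3.65 to 62.9 ± 10.6 CPM and its partner Rfx2 from 8.50 ± 0.811 to 53.0 ± 1.67 CPM, in a list of 30 cilium genes of which 12 were higher and 5 lower. Of 20 genes of fatty acid handling 12 were higher and 4 lower. Of 42 collagens, 15 were higher and 6 lower, and the basement membrane gene Col4a5 rose from 103 ± 48.5 to 710.4 ± 223 CPM. Of 22 neuron markers, 4 were higher and 7 lower, with Tubb3 at 2.48 ± 0.603 and 28.7 ± 14.9 CPM and Dcx at 0.784 CPM in NSCs and 3 counts or fewer in every AGES library. Of 16 oligodendrocyte lineage markers 2 were higher and 3 lower, the myelin gene Mbp being at 4.30 ± 0.859 and 4.75 ± 1.36 CPM and Sox10 under 1 CPM in both groups.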
